A study of Mus musculus with 4 samples.

Results

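In 2850 of 19193 tiled regions of the 19 mouse autosomes, no mean of 3 neighbouring kept probes reached the array's middle value. This held for both RING1B and H3K27me3, although single probes could lie above it. These 2850 are called doubly low regions here. A tiled region was a group of probes whose neighbouring starts lay at most 1000 bp apart. Each probe gave a ratio on the log2 scale, Cy5 over Cy3, centred at 0 on the median of the probes kept on its array. The highest mean of 3 neighbouring kept probes was the region's top window, and a region was doubly low when the top windows of both antibodies lay below 0. A further part of the 24078 tiled regions had too few kept probes for a window with both antibodies. The regions were chosen by these top windows, so those values are given as a description, and no value taken from them supports a finding.

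RING1B is the ubiquitin ligase subunit of Polycomb repressive complex 1, and H3K27me3 is the histone mark laid down by Polycomb repressive complex 2. Both are found together over CpG-rich promoters of developmental regulators that are silent in a tissue, and in limb buds they are known at genes such as those of the Hox clusters. Most other promoters and gene-poor stretches carry little of either.

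Chromatin came from pooled whole forelimb buds of wild type BDF1 mouse embryos at E10.5. It was precipitated with an antibody against RING1B (2 arrays) or H3K27me3 (2 arrays). Precipitated and input DNA were amplified with T7 RNA polymerase and hybridised to one array in different dyes. No mutant, treated or other-stage group was compared. Whole buds hold mesenchyme, ectoderm and other cells, so each ratio is an average over them. The numbers 1 and 2 in the titles stood for 2 array designs with no probe in common. Each locus was thus measured on 1 array per antibody, with no replicate, and no p-value is given. Errors are SDs over the probes of a window or region.

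The labels assign Cy3 to the precipitate and Cy5 to the input. Read that way every sign turns, and the doubly low regions would be those where every window was on the precipitate side of the median. In that reading, the regions whose windows all lay on the input side for both antibodies numbered 1012 (5.27%), with a median of 18 kept probes and a mean probe length of 52.3 nt. None of them is among the 2850. "Low" below therefore means a low Cy5 over Cy3 ratio and nothing further.

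The 2850 regions were 14.8% of those measured with both antibodies. RING1B top windows lay below 0 in 3732 regions (19.4%) and H3K27me3 top windows in 6446 (33.6%). The doubly low regions were 76.4% of the RING1B list and 44.2% of the H3K27me3 list. Independent lists of these sizes would share 1253.4 regions, or 2176.3 when the shares are taken within regions of equal probe number. Both antibodies' ratios used input from the same kind of DNA and the same probes, so the lists were not independent measurements. Array 1 held 1458 doubly low regions of 10106 (14.4%), and array 2 held 1392 of 9087 (15.3%).

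The median RING1B top window of doubly low regions was -0.38 (quartiles -0.70 and -0.18), against 0.89 in all other regions. The median H3K27me3 top window was -0.75 (quartiles -1.12 and -0.41), against 0.55. The 2 arrays gave nearly the same medians for doubly low regions, -0.38 on both for RING1B, and -0.76 on array 1 and -0.74 on array 2 for H3K27me3. The arrays hold different loci, each array was centred on its own median and the rule cut both at 0, so this is no replication. The lowest top windows were -2.36 for RING1B and -2.93 for H3K27me3. Both top windows lay under -1, which is a 2-fold lower ratio than the median, in 176 regions. In 491 regions the larger of the 2 lay above -0.10, so a sizeable group sat near the boundary.

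**Figure D1:**
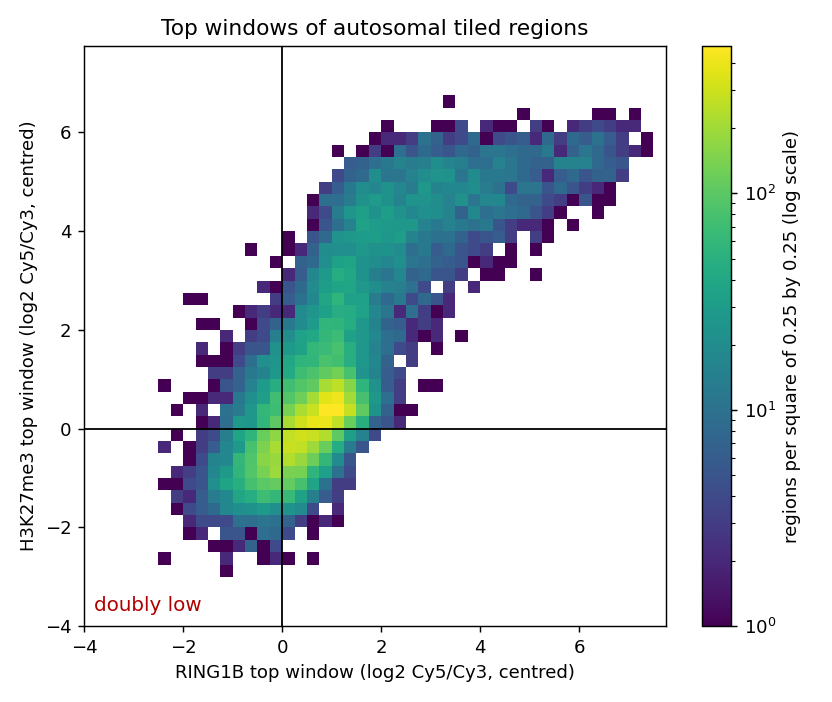
The plot sets the RING1B top window (x axis) against the H3K27me3 top window (y axis) of autosomal tiled regions, both as centred log2 Cy5 over Cy3, with colour for the number of regions per square on a log scale. The 2850 doubly low regions fill the lower left quadrant, which joins the densest part of the cloud with no gap, while a separate arm of high regions reaches beyond 6 for both antibodies.

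In the plot of top windows, the lower left quadrant was the continuous lower edge of the main cloud and not a group of its own. Within doubly low regions the H3K27me3 top window was the lower one in 2060 of 2850 (72.3%). The median of RING1B minus H3K27me3 was 0.29, close to the 0.27 found over all regions. Over all kept probes the RING1B ratios spread less widely, with SDs of 1.33 and 1.41 on its 2 arrays against 1.91 and 1.68 for H3K27me3. Across the 2850 regions the region means of the 2 antibodies had a Pearson correlation of 0.31 and a Spearman correlation of 0.32, as a description over regions that share probes and kind of input DNA.

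Values just inside and just outside the rule differed by less than the probe SD of a single window. The doubly low region on chromosome 1 from 132736495 to 132737259 had a RING1B top window of -0.00031 ± 0.14 (SD, 3 probes). On chromosome 10, the region from 20638029 to 20639424 was inside the rule by its H3K27me3 top window of -0.00057 ± 0.37. The region on chromosome 1 from 88252106 to 88253631 was outside, with a RING1B top window of 0.00065 ± 0.32 and an H3K27me3 top window of -0.65 ± 0.07. Membership at the boundary therefore rested on differences that 1 array cannot resolve.

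Doubly low regions were small. They had a median of 8 tiled and 6 kept probes over 1932.5 bp, against 25 tiled and 20 kept probes over 5727 bp in all other regions. In 1424 of the 2850 (49.96%) there were 3 to 5 kept probes, and 399 had a single window for both antibodies. The highest of few windows is below 0 more easily than the highest of many, and regions with few kept probes also had longer probes, with a median of 7 kept probes above a mean length of 59 nt against 21 at up to 50 nt. The share of doubly low regions fell with the number of probes, and the parts of the 2 were not tested. The share was 50.1% of 2845 regions with 3 to 5 kept probes, 28.0% with 6 to 10, 10.4% with 11 to 15 and 6.60% with 16 to 20. It was 2.99% with 21 to 25, 1.57% with 26 to 30 and 0.474% of 3166 regions with 31 or more.

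**Figure D2:**
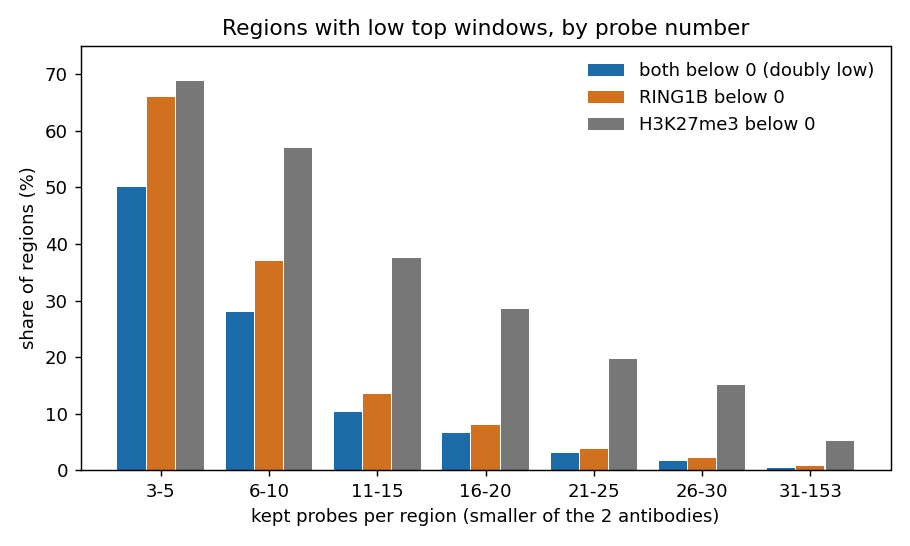
Bars give the share of regions, in percent, that were doubly low (blue), low for RING1B (orange) or low for H3K27me3 (grey) in bins of kept probes per region. Doubly low regions made up 50.1% of the regions with 3 to 5 kept probes and 0.474% of those with 31 or more.

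In the bars by probe number, the doubly low share was 50.1% against a RING1B-low share of 65.9% with 3 to 5 kept probes, and 28.0% against 36.9% with 6 to 10. With 31 or more it was 0.474% against 0.790%. Outside the doubly low set, 882 regions were low for RING1B alone and 3596 for H3K27me3 alone. Regions low for H3K27me3 alone were larger, with a median of 13 kept probes and a RING1B top window of 0.40. Regions low for RING1B alone had 5 kept probes and an H3K27me3 top window of 0.54.

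Region means bring in every kept probe, although they come from the ratios that the rule used. The median region mean was -0.82 for RING1B and -1.07 for H3K27me3 in doubly low regions, against -0.086 and -0.28 in all other regions. The median lowest windows were -1.18 for RING1B and -1.35 for H3K27me3, against -1.05 and -1.12. These are minima over fewer probes in doubly low regions. Among regions with at least 20 kept probes for both antibodies, the lowest windows were -1.89 for RING1B and -2.02 for H3K27me3 in doubly low regions, against -1.22 and -1.22 in the others.

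Single probes were not all low. Of the kept probes in doubly low regions, 14.8% lay above 0 for RING1B and 5.29% for H3K27me3, against 52.7% and 51.7% in all other regions. At least 1 kept probe lay at or above 0 in 1960 of the 2850 regions for RING1B and in 976 for H3K27me3. A probe at or above 1, the 2-fold level, occurred in 110 regions for RING1B and in 16 for H3K27me3. No kept probe of either antibody reached 0 in 706 of the 2850 regions. Among the 145 of them with at least 20 kept probes for both antibodies, this held in 4. By the rule, every region outside the set held a kept probe at or above 0 for at least 1 antibody.

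More probes were lost to low brightness in doubly low regions than in the other regions pooled. For H3K27me3 the loss was slightly greater in regions low for H3K27me3 alone, with 74.1% of probes kept and 19.3% dim in Cy5 alone. For RING1B those regions kept 81.8%, with 12.7% dim in Cy5 alone. Of the tiled probes of doubly low regions, 74.98% were kept for RING1B and 75.8% for H3K27me3, against 86.6% and 85.3% in all other regions. Probes that were dim in Cy5 alone made up 19.2% for RING1B and 17.4% for H3K27me3, against 7.04% and 8.68%. The ratios of those dim probes had medians of -2.78 and -2.21 in doubly low regions, against -2.45 and -2.30 elsewhere. The windows therefore leave out the probes with the weakest Cy5 signal, and a ratio can be called low only where Cy5 was still measurable.

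Both dyes enter the ratio that the rule used, and the difference lay in Cy5. In kept probes of the RING1B arrays, the median log2 Cy5 signal was 8.95 in doubly low regions against 9.83 in all others, while log2 Cy3 was 9.89 against 9.81. On the H3K27me3 arrays, log2 Cy5 was 9.10 against 10.45, and log2 Cy3 was 10.25 against 10.26. Regions low for H3K27me3 alone had nearly the same log2 Cy5 on those arrays, 9.14. Across 20174 probes of doubly low regions kept for both antibodies, the Cy3 signals of the 2 antibodies had a Pearson correlation of 0.89, the Cy5 signals 0.61 and the ratios 0.36. These are probe levels of one locus seen through the same probe, so they share its hybridisation behaviour.

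A set of 145 doubly low regions had at least 20 kept probes for both antibodies and are called well tiled. They were 1.72% of the 8438 regions of that size. Their number of kept probes was near that of the others, with a median of 24 against 28. The median RING1B top window was -0.15 against 1.17, and the median H3K27me3 top window was -0.63 against 0.99. Their region means were -0.94 for RING1B and -1.31 for H3K27me3, against -0.023 and -0.083. Every one of the 145 had a lowest window under -1 for both antibodies, which was common in other well tiled regions too. The median lowest window of all others was -1.22 for each antibody. In well tiled regions low for H3K27me3 alone, the upper quartiles were -1.35 for RING1B and -1.66 for H3K27me3. The 145 lay on 18 of the 19 autosomes, 86 on array 1 and 59 on array 2. Chromosome 12 held 0 among 301 regions of that size.

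Within the well tiled doubly low regions the mean ratio was low from centre to edge, and the RING1B ratio was somewhat less low at the edge. In 114 of them between 6 and 9 kb long, the mean RING1B ratio was -0.98 ± 0.35 (SD over regions) within 1 kb of the centre. It was -0.96 ± 0.36 at 1 to 2 kb, -0.99 ± 0.35 at 2 to 3 kb and -0.81 ± 0.36 at 3 to 4.5 kb (113 regions). The H3K27me3 ratio was -1.36 ± 0.47, -1.36 ± 0.40, -1.37 ± 0.41 and -1.31 ± 0.49 at the same distances. Low means at all distances follow largely from the rule, which kept every window below 0. In regions low for RING1B alone, the RING1B ratio was likewise -0.88 ± 0.31 at the centre and -0.76 ± 0.42 at the edge. In regions low for H3K27me3 alone, the H3K27me3 ratio was -1.21 ± 0.50 and -1.21 ± 0.48. Regions with both top windows at or above 0 had RING1B ratios of 0.33 ± 1.23, 0.52 ± 0.99, 0.38 ± 1.15 and 0.10 ± 1.12, a wider spread over 5361 regions (5319 at the edge).

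The well tiled region whose larger top window was lowest lay on chromosome 16 from 64725941 to 64733910, a stretch of 7970 bp on array 2. Its RING1B top window was -0.72 ± 0.15 (SD, 3 probes) and its lowest window -2.60 ± 0.12. The 24 kept RING1B probes ran between -4.42 and -0.25 with a median of -1.22. Its H3K27me3 top window was -1.73 ± 0.65 and its lowest window -3.03 ± 0.33. The 20 kept H3K27me3 probes ran between -3.52 and -0.98 with a median of -2.21. The SD over its RING1B probes, 1.07, was the largest among the 8 regions ranked this way. No kept probe of either antibody reached 0 there, which was true of 4 of the 145.

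A second such region lay on chromosome 3 from 75353604 to 75360972. Its top windows were -0.70 ± 0.70 for RING1B and -0.72 ± 0.30 for H3K27me3, so the antibodies were equally low at their highest point. On chromosome 1, the region from 175990206 to 175997965 had top windows of -0.60 ± 0.11 for RING1B and -1.07 ± 0.55 for H3K27me3. The region on chromosome 19 from 34230132 to 34237540 had -0.53 ± 1.04 and -0.97 ± 0.40. Its highest single RING1B probe stood at 0.19, although no mean of 3 neighbouring kept probes there reached 0.

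Another 2 of the lowest regions lay on chromosome 7. The one from 86564728 to 86571396 had top windows of -0.47 ± 0.85 for RING1B and -1.05 ± 0.32 for H3K27me3. The one from 86180609 to 86185316 had -0.75 ± 0.14 and -0.47 ± 0.24, the lowest RING1B top window among the 145. The remaining ones of the 8 regions ranked by their larger top window were on chromosome 8 from 65012831 to 65020047 and on chromosome 1 from 34099613 to 34107391. Their RING1B top windows were -0.54 ± 0.39 and -0.45 ± 0.37, and their H3K27me3 top windows -0.45 ± 0.34 and -0.72 ± 1.01. Each of the 2 held single RING1B probes well above 0, the highest at 0.58 and 0.77.

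The doubly low regions with the most kept probes show how long such a stretch could be. On chromosome 16, the 13175 bp from 88761848 to 88775022 held 46 kept RING1B and 50 kept H3K27me3 probes with region means of -0.88 ± 0.75 and -1.04 ± 0.61 (SD over probes). On chromosome 9, the 13219 bp from 39749828 to 39763046 held 44 and 43 kept probes with means of -1.14 ± 0.82 and -1.43 ± 0.62. Its top windows were -0.30 ± 0.26 and -0.74 ± 0.30. The next were on chromosome 5 from 103146738 to 103154740, with means of -0.99 ± 0.90 and -1.43 ± 0.73, and on chromosome 4 from 82691492 to 82699558, with -1.17 ± 1.01 and -1.30 ± 0.55. In all 4 regions some single probes lay above 0, with a highest value of 0.56.

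The deepest windows of the 2 antibodies lay in different regions. For RING1B they were -3.22 ± 0.25 on chromosome 16 from 19395790 to 19402670, -2.97 ± 0.86 on chromosome 13 from 27265573 to 27268855 and -2.96 ± 0.90 on chromosome 6 from 42741814 to 42748751. The H3K27me3 lowest windows of those 3 were -2.03 ± 0.18, -2.17 ± 0.36 and -1.64 ± 0.50. For H3K27me3 the deepest were -3.45 ± 1.05 on chromosome 1 from 80204028 to 80207611, -3.14 ± 0.68 on chromosome 1 from 145399435 to 145405570 and -3.10 ± 0.43 on chromosome 3 from 95218339 to 95219417. The last of these held 4 kept H3K27me3 probes over 1079 bp.

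Doubly low regions also differed from the others in probe length, which did not itself enter the rule. It is not independent of the rule, since the ratios moved with probe length, as given below. Probes were 44 to 60 nt long, and per region the median of mean lengths was 57.8 nt in doubly low regions against 54.4 nt in all others. Of the probes of doubly low regions 66.5% had the full 60 nt and 3.17% had 45 nt, against 38.6% and 18.3%. The median was 57.9 nt against 54.4 nt on array 1 and 57.5 nt against 54.4 nt on array 2. Among well tiled regions it was 58.4 nt against 54.1 nt. Regions low for one antibody lay between, at 56.3 nt for RING1B alone and 56.5 nt for H3K27me3 alone, while regions with both top windows at or above 0 had 53.7 nt.

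The difference in probe length held in every bin of probe number. With 3 to 5 kept probes the doubly low regions averaged 57.4 nt against 55.8 nt, with 16 to 20 they averaged 58.6 nt against 54.6 nt, and with 31 or more 57.4 nt against 53.2 nt. Turned round, the share of doubly low regions was 3.61% where mean probe length was at most 50 nt, 9.81% between 54 and 56 nt, 35.4% between 58 and 59 nt and 53.8% (843 of 1568) above 59 nt. Among well tiled regions the share was 0% of 752 at up to 50 nt, 0.685% between 54 and 56 nt, 12.2% between 58 and 59 nt and 25.6% (42 of 164) above 59 nt.

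**Figure D3:**
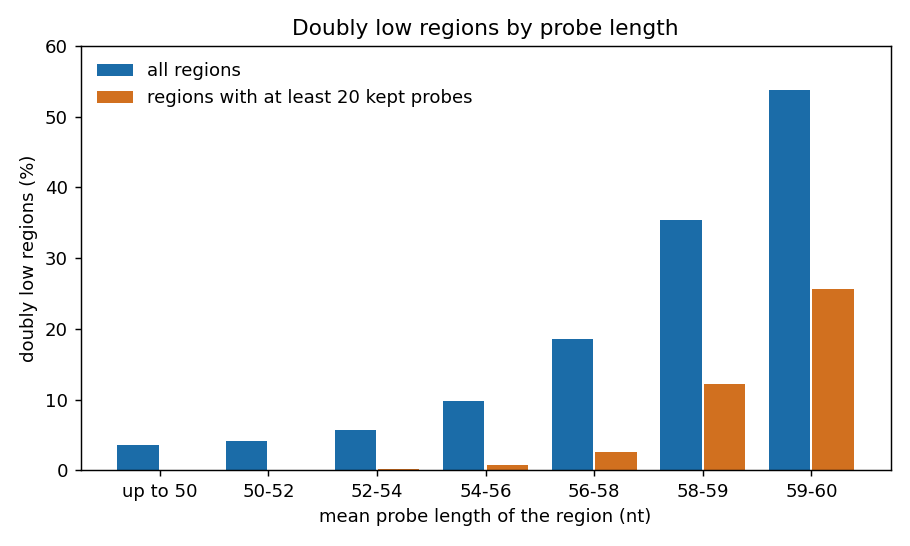
Bars give the share of regions that were doubly low, in percent, in bins of the region's mean probe length in nt, for all regions (blue) and for regions with at least 20 kept probes (orange). The share was highest above 59 nt, at 53.8% and 25.6%, and the orange bars are 0 in both bins up to 52 nt.

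The ratio itself moved with probe length on these arrays. Over all kept probes, 60-nt probes had a median ratio of -0.34 for RING1B and -0.63 for H3K27me3, against 0.68 and 0.43 for 45-nt probes. Within doubly low regions the 60-nt probes had -0.87 and -1.28, against -0.25 and -0.25 for 45-nt probes. In all other regions the 60-nt probes had -0.27 and -0.48. These ratios are those that chose the regions, so the difference at equal length is a description. When ratios were centred within each probe length, an alternative chosen after seeing the data, 1869 regions were doubly low and 1715 of them were among the 2850. Those 1715 were 60.2% of the original set and 91.8% of the length-centred one. Doubly low regions under that centring still had longer probes, 57.0 nt against 54.7 nt. Base composition was not analysed here. The part of base composition in the low ratios was not tested.

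Doubly low regions occurred on every autosome. Their share was highest on chromosome 13, with 148 of 730 regions (20.3%), and lowest on chromosome 5, with 139 of 1237 (11.2%). Relative to regions of the same probe number the share was 1.31 times as high on chromosome 13 and 0.688 times on chromosome 5. With probe number and length both matched in bins, the ratios narrowed to 1.104 on chromosome 13 and 0.823 on chromosome 5. The highest was then 1.18 on chromosome 14. Chromosome 5 was tiled on array 1, and chromosomes 13 and 14 on array 2. These contrasts between chromosomes therefore cannot be told apart from the array. Chromosome 9, tiled on both, had 53 of 214 regions doubly low (24.8%) on array 1 and 173 of 985 (17.6%) on array 2.

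Doubly low regions lay next to each other more often than other regions lay next to one. Of 2753 doubly low regions with a neighbouring region within 100 kb on the same array, 1051 (38.2%) had a doubly low neighbour. Of 14555 other regions, 3176 (21.8%) had one. The 95% Wilson interval of the first share, 36.4% to 40.0%, covers counting error only, and neighbouring regions are not independent of each other.

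Probe number and length are shared by neighbours. The share of doubly low regions in the same bins of probe number and mean probe length is therefore given beside each distance. Differences within a bin were not matched. Between 3 and 10 kb, the next region was doubly low after 35.7% of doubly low regions, where number and length alone gave 26.6%, and after 11.9% of other regions, where they gave 13.1%. Between 10 and 30 kb the shares were 29.1% (26.01% from number and length) against 11.8% (11.5%). Between 30 and 100 kb they were 24.7% (22.0%) against 9.96% (10.54%), and between 100 and 1000 kb 17.7% (15.3%) against 8.83% (9.50%). Other properties that neighbours share, base composition among them, were not matched. Within 3 kb the shares were 25.8% (23.3%) against 21.7% (22.7%), the smallest difference of the 5 distances.

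**Figure D4:**
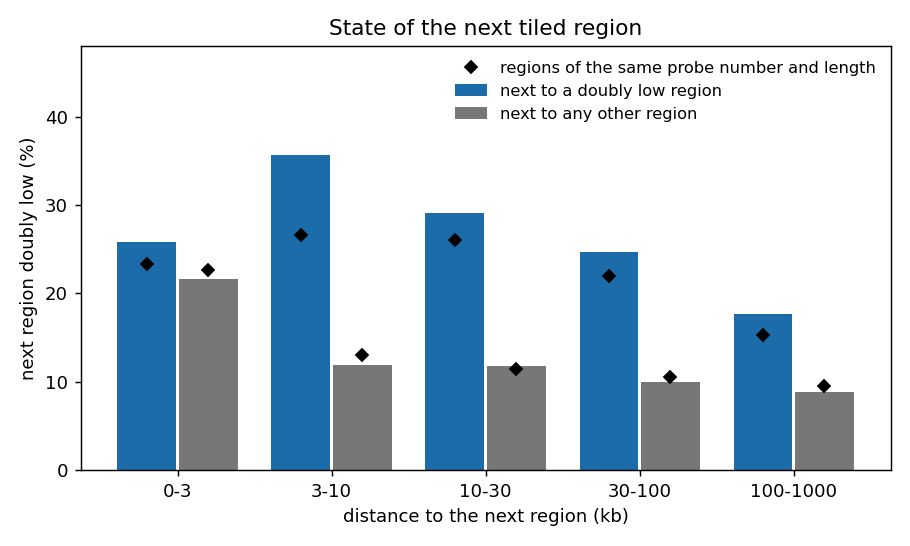
Bars give the percentage of cases in which the next tiled region was doubly low, after a doubly low region (blue) and after any other region (grey), by the distance between them in kb. Diamonds give the percentage among regions in the same bins of probe number and probe length as those next regions. The blue bar exceeds its diamond most between 3 and 10 kb, at 35.7% against 26.6%.

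The 2850 regions formed 2200 runs, in which no other measured region of the same array lay between and gaps were at most 100 kb. Of these runs 1799 were single regions. Runs of 4 or more numbered 57 and held 300 regions. The longest run was 14 regions on chromosome 9 from 38767788 to 39182464, a span of 414.7 kb with 104 kept probes. Its RING1B top windows lay between -0.80 and -0.05 with a median of -0.40. Its H3K27me3 top windows lay between -2.16 and -0.58 with a median of -1.02, so H3K27me3 was clear of 0 in every region of the run and RING1B was not.

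Both ends of that run were set by RING1B. The region before it had a RING1B top window of 0.52 and an H3K27me3 top window of -1.05, and the region after it had 0.20 and -0.62. Within 500 kb on either side, the run included, 43 of 67 regions (64.2%) were doubly low, 65 were low for H3K27me3 and 44 for RING1B. None of the 67 passed the level at which a region was counted as called. The called level was set per array so that no more than 5 regions fell under its negative for each 100 above it. It was passed by 1428 regions (7.44%) for RING1B and by 3016 (15.7%) for H3K27me3.

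**Figure D5:**
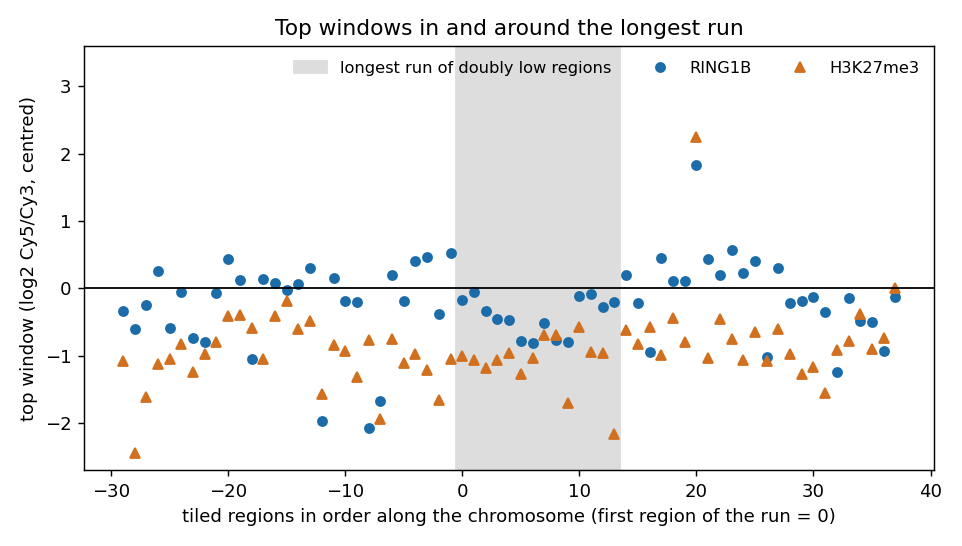
Points give the top window, as centred log2 Cy5 over Cy3, of RING1B (blue circles) and H3K27me3 (orange triangles) in successive tiled regions of chromosome 9 around the longest run (grey band, 14 regions). H3K27me3 lay below 0 in 65 of the 67 regions and RING1B in 44, and 1 region to the right of the run stands out at 1.83 for RING1B and 2.25 for H3K27me3.

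The second longest run lay on chromosome 2 from 87579131 to 87929615, with 12 regions over 350.5 kb and 131 kept probes. RING1B top windows lay between -1.45 and -0.07 with a median of -0.61, and H3K27me3 top windows between -1.70 and -0.88 with a median of -1.23. Within 500 kb of it 25 of 38 regions (65.8%) were doubly low and 37 were low for H3K27me3. None was called for RING1B and 1 for H3K27me3, with a top window of 3.84. The third run lay close to the first, on chromosome 9 from 39467684 to 39626169, with 9 regions and 59 kept probes. Its RING1B median was -0.35 and its H3K27me3 median -0.91. Within 500 kb of it 22 of 46 regions (47.8%) were doubly low, none was called for RING1B and 1 for H3K27me3, with a top window of 3.76. The mean probe lengths of the 3 runs were 59.2, 59.8 and 59.5 nt, near the maximum of 60 nt, so these runs had the property that went with low ratios throughout the arrays.

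Doubly low regions lay farther from called regions than other regions that were not called, measured on the same array. The median distance to the nearest RING1B-called region was 617.5 kb against 390.0 kb, and to the nearest H3K27me3-called region 281.1 kb against 157.3 kb. Within 10 kb of a RING1B-called region lay 36 doubly low regions (1.26%) against 356 of 13288 others (2.68%). Within 10 kb of an H3K27me3-called region lay 99 (3.47%) against 1008 (7.59%). Of 5780 well tiled others that were not called, 77 (1.33%) lay within 10 kb of a RING1B-called region and 240 (4.15%) of an H3K27me3-called one. None of the 145 well tiled doubly low regions did so for either antibody, so for RING1B the count was near that small share. Their median distances were 888.3 kb and 482.2 kb, against 402.7 kb and 168.1 kb in 5780 well tiled others. Distances were not matched on probe length, whose part in them was not tested.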

How the data were processed

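Per the file headers, the authors extracted 4 scans with Agilent Feature Extraction 10.1.1.1. The deposited processed signals are intensity values after subtraction of a spatially detrended background, multiplicative detrending and linear dye normalization, and the median signals and local backgrounds used in 1 alternative are uncorrected intensities. Log ratios are on the log10 scale, Cy5 over Cy3, per the file headers. The authors' value tables, on the log2 scale, held the same ratios without centring, with 99.7% to 99.9% of values per array within 0.001 and medians between -0.16 and 0.017. A genome build is not stated in the files or labels used here, and no gene, sequence or gene list was assigned to regions.

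From these, log2 Cy5 over Cy3 was centred on the median of kept probes per array. Kept probes were those well above background in each channel, without control spots or outlier spots. This kept between 196983 and 203495 probes per array, of 236770 or 236872 with a position. The number of arrays limits the precision. Top windows were means of 3 neighbouring kept probes. Well tiled meant at least 20 kept probes for both antibodies. No loess was applied and no test was made, since each locus had 1 array per antibody. Regions named were the 8 well tiled with the lowest larger top window, the 3 nearest 0 on each side (of which 3 are given), the 4 with most kept probes, the 3 deepest per antibody and the 3 longest runs. The members and lists were chosen with earlier results of these data known. The region search was run on simulated data in which planted low regions stood well apart from the rest. That run checked the search itself and cannot show how well membership is resolved on these arrays. The alternatives changed background correction, normalization, filters, window, threshold, region gap, region size, direction and array. Python 3.11.15, numpy 2.4.6, pandas 2.3.3, R 4.3.3 and limma 3.58.1 were used.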

Additional observations from a re-analysis of the deposited data

How the results depend on the processing

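No paired analysis was possible because numbers 1 and 2 are different array designs that share no locus. Counts by gene list were not run, since nothing used here pairs regions with genes of the same build. In the reported setting there were 2850 doubly low regions, their median of kept probes minus that of the others was -14, and 38.2% had a doubly low neighbour. The deposited value table gave the same 2850, and keeping outlier spots gave 2848 with 38.2%. With normexp the neighbour share was 34.8%, with medians of 3 probes 35.6% and with no filter on dim probes 40.3%. With dim probes in 1 channel allowed it was 41.2% and with windows of 5 probes 46.8%. In these settings the number of regions moved by less than 1.5 times, but the members changed more. Of the 2850, 68.1% remained with normexp, 80.6% with medians of 3 probes and 72.5% with no filter on dim probes. With dim probes in 1 channel allowed 79.7% remained, and with windows of 5 probes 60.5%. Loess within each array gave 1874 regions and 27.5%, and 1570 of them were among the 2850. Centring within each probe length, chosen after seeing the data, gave 1869 and 28.2%. Taking region means below 0 gave 10056 regions, a difference of -6 probes and 77.7%. Top windows below 0.25 gave 4422 and 50.4%, and below -0.25 gave 1645 and 29.4%. Starts at most 500 bp apart gave 7777 regions, a difference of -6 probes and 49.6%, and at most 2000 bp apart 1167 and 42.9%. Regions with at least 20 kept probes gave 145, a difference of -4 and 9.52%, where other regions of that size had a doubly low neighbour in 1.65%. With the dyes as labelled there were 1012 regions, a difference of 1 probe, which is of opposite sign, and 27.7%. Leaving out 1 array design gave between 1392 and 1458 regions and between 36.3% and 40.0%, from fewer regions by construction. For the other alternatives the cause was not tested. Mean probe length was greater in doubly low regions than in others in 17 of the 18 alternatives, the exception being the dyes as labelled, with 52.3 nt against 55 nt. The dim probes left out limit what can be said of the lowest ratios, since 19.2% of RING1B and 17.4% of H3K27me3 probes in doubly low regions were dim in Cy5 alone.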

Other observations

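A few doubly low regions directly adjoined strongly high ones, a set chosen after the values were seen. Within 3 kb of a RING1B-called region lay 25 of the 2850 (0.877%), against 215 of 13288 other regions that were not called (1.62%). For H3K27me3 these were 73 (2.56%) and 612 (4.61%). On chromosome 4, the region from 109168055 to 109168788 had top windows of -0.46 for RING1B and -0.36 for H3K27me3, from 3 kept probes each. It lay 991 bp from a called region, from 109153424 to 109167064, with top windows of 6.26 and 5.67. On chromosome 12, the region from 77317732 to 77318745 had -0.93 and -1.25 from 3 kept probes each. It lay 1288 bp from one with 5.95 and 5.13. On chromosome 10, the region from 99440232 to 99441448 had -0.28 and -0.19 from 6 kept probes each and lay 1000 bp from one with 4.90 and 4.53. In these 3 places both ratios passed below the array median within about the spacing that separates 2 tiled regions.

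The share of called regions was lowest where probes were longest. Above a mean of 59 nt, 0.128% of 1568 regions were called for RING1B and 0.510% for H3K27me3, against 10.4% and 30.9% of 1411 regions at up to 50 nt. Between these ends the RING1B share did not fall steadily: it was 11.8% between 52 and 54 nt, and among well tiled regions 21.4% there against 15.7% at up to 50 nt. The H3K27me3 share was 22.5% between 52 and 54 nt. Of the 164 well tiled regions above 59 nt, 0% were called for either antibody, with 25.6% doubly low.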
